A study of Mus musculus with 23 samples.

Results

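Liver RNA of 5 control mice was set against a universal mouse reference RNA on the same arrays, gene by gene. The members are the 5 arrays titled as controls out of 23 in the series, and the other 18 came from furan-treated mice. All animals were female B6C3F1 mice bought at 5 to 6 weeks of age and given at least 7 days to acclimatise, and the control animals received corn oil alone by oral gavage for 21 days. The furan groups received 1, 2, 4 or 8 mg/kg in corn oil on the same schedule (4, 5, 4 and 5 animals). Livers were taken 4 h after the last gavage and snap frozen, so each value describes whole liver with every cell type it holds.

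On each array the animal's liver RNA carried Cy5 and the reference RNA carried Cy3. The value of a gene is the log2 ratio of liver over reference, so that 1 means 2-fold higher in liver and -1 means 2-fold lower. The labels name the reference as universal mouse reference RNA and do not list the cells it was made from. No dye was swapped, so a gene-specific dye bias and a difference between the RNAs cannot be told apart. For that reason each gene was tested against a 2-fold difference rather than against 0 (limma's treat, two-sided, Benjamini-Hochberg adjusted p of at most 0.05 over all genes tested), and all adjusted p values below come from that test unless another is named. The p values measure the spread among these 5 animals only, and the mice were housed 5 to a cage, with no record in the labels of which shared one.

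The liver is the main source of plasma proteins, clears nitrogen as urea, stores and releases glucose, makes bile acids and modifies foreign compounds before they are excreted. Most of its mass is hepatocytes, which in an adult animal rarely divide, with resident macrophages (Kupffer cells), sinusoidal endothelium, stellate cells and bile duct cells between them. A network of transcription factors that includes Hnf4a, Cebpa and the Foxa factors keeps hepatocyte genes active. Because a reference RNA is a mixture, a ratio far above 0 marks transcripts abundant in liver and scarce in the mixture, and a ratio far below 0 marks the reverse.

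All 10 hepatocyte markers were called higher in liver, among them Alb (serum albumin) with a mean log2 ratio of 6.78, Ttr with 7.12, Cyp2e1 with 7.28 and Hnf4a with 4.84. The sex of the animals could also be read from the arrays. Ddx3y and Eif2s3y, genes of the Y chromosome, were not well above background in the liver channel on any control array and were at least 14.2-fold and 10.2-fold lower than in the reference. Xist, the RNA that coats the inactive X chromosome, was higher in liver by 1.44 ± 0.15 (SD, n = 5; adjusted p = 0.00247), a call lost from median signals, from the deposited value table and with spike-ins at 0.

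Replicate 1 stood apart among the controls by carrying transcripts of skeletal muscle. Of 16 muscle genes tested, 7 lay more than 2 log2 units above the highest of the other 4 controls in this animal, and in it all 7 also exceeded every furan animal. Acta1, skeletal muscle actin, had a log2 ratio of 4.03 in replicate 1 and -3.90, -4.09, -4.73 and -3.87 in replicates 2 to 5. Myl1, a fast-muscle myosin light chain, had 4.10 in replicate 1 and -6.31, -4.90, -6.36 and -5.36 in the others. Tnni2, fast troponin I, had 4.55 against -2.70, -2.35, -3.10 and -2.22. Liver signal was well above background on all 5 control arrays for Tnni2, but on 2 for Acta1 and 1 for Myl1. Low values of Acta1 and Myl1 from the remaining arrays are therefore not measurements of the fold. The values of replicate 1 and those of the other animals did not overlap for any of these genes. Raised values were not confined to replicate 1. The highest furan value was 1.07 for Acta1 (furan median -3.99), 0.02 for Myl1 (-5.40) and 1.03 for Tnni2 (-2.74). For Tnni1, also among the 7, it was -1.15 (-1.97). Whether 1 furan animal held these highest values was not examined.

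The titin gene Ttn (5.95 against -2.32 to -0.94) and the fast troponins Tnnc2 (4.84 against -2.51 to -2.26) and Tnnt3 (4.71 against -4.83 to -3.22) showed the same arrangement. Liver signal was well above background on 4 control arrays for Tnnc2 but on only 1 for Ttn and 1 for Tnnt3. Genes of developing muscle did not share it: Myod1, Myog and Myh3 were not well above background in liver on any array, replicate 1 included. The median of the muscle list was 0.93 in replicate 1 and -2.36, -1.88, -2.27 and -2.06 in replicates 2 to 5. With all 5 animals 4 muscle genes were called lower than in the reference and 1 higher, and without replicate 1 these counts were 13 and 1. Over all genes tested in the 5 animals 18.4% were called lower and 17.9% higher. For Pygm and Fabp3 the means below are therefore given with and without this animal. For other muscle genes that moved with it, its value is given beside those of the other controls.

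**Figure D1:**
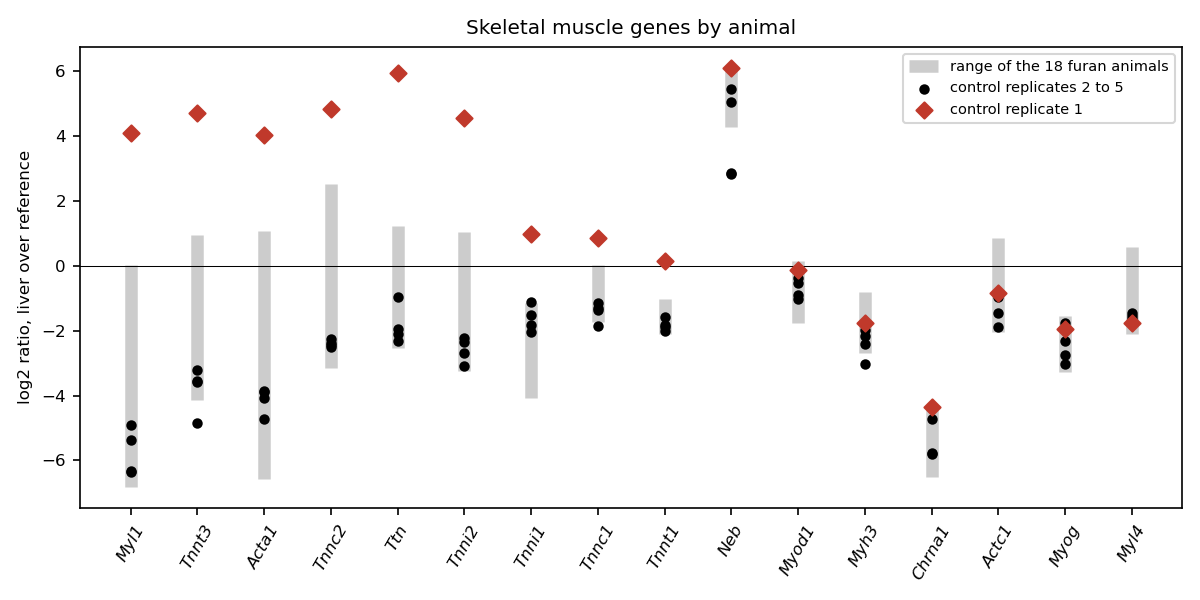
Log2 ratio of liver over reference for each of the 16 skeletal muscle genes tested (vertical axis), with control replicate 1 as a diamond, control replicates 2 to 5 as dots and the range of the 18 furan animals as a grey bar. For Acta1 the diamond lies at 4.03 and the other controls between -4.73 and -3.87, while for Myog it lies among them.

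Of 24479 genes tested, 4373 (17.9%) were called higher in liver and 4516 (18.4%) lower, together 36.3%. Genes above the reference made up 49.2% of the calls, a split that depended on where 0 was set. It was 62.8% when the ratios were shifted to put the median ribosomal protein gene at 0. It was 39.7% with no further loess normalisation, and 20% with the spike-in intercept set to 0. The last setting, called spike-ins at 0 throughout, also had no further loess. It subtracted from each array the intercept of observed on expected log ratios of its spike-in controls. No gene called under these settings had a call in the opposite direction. Among the 14987 genes with a matched symbol, 20.5% were called higher and 21.4% lower. Replicate arrays agreed closely, with correlations of 0.951 to 0.976 over all genes, and the median gene had an SD of 0.258 over the 5 animals.

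Not every gene was measured on both sides. In 16250 genes both channels were well above background on all 5 arrays, and of these 21.9% were called higher and 14.4% lower. Another 3071 genes were above background in no liver channel and 256 in no reference channel, so that their fold was not measured. A lower bound of the fold above 1 could be given for 1415 of the 3071 and for all 256. These genes remain in the counts of calls: 1249 of the 3071 were called lower and 255 of the 256 higher. In a further 4902 genes a channel was above background on only part of the arrays, so their ratios can include values near background. The number of probes above background ranged from 25290 to 30345 in the liver channel and from 35044 to 40476 in the reference channel.

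Among genes measured in both channels on all arrays, the highest ratios belonged to metabolic enzymes and carriers of the hepatocyte. Akr1c6, a hydroxysteroid dehydrogenase, had log2 ratios of 11.32, 13.52, 11.63, 11.74 and 11.37 in replicates 1 to 5, a mean of 11.92 ± 0.91 (adjusted p = 1.47e-06). Its lowest animal was still more than 11 log2 units above the reference, and replicate 2 was the highest by a clear margin. Slc27a2, which takes up and activates very long chain fatty acids, averaged 11.78 ± 0.72, and Aadac, a microsomal esterase, 11.45 ± 0.95. Rgn, a calcium-binding lactonase of the vitamin C pathway, also averaged 11.45. The 20 highest ratios ran down to 9.82 for Fgg, the fibrinogen gamma chain, and included Fabp1, Adh4, Ambp, Serpinc1, Apoh and Pon1. Cyp3a25, Cyp2c54, Kng2 and Mup5, also among them, belong to families of near-identical genes, so their probes may read relatives as well.

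Some transcripts were bright in liver and not well above background in the reference on any array. Baat, which joins bile acids to amino acids, was at least 338-fold higher in liver, and C9, a pore-forming complement component, at least 307-fold. Acot12, a liver acetyl-CoA hydrolase, was at least 977-fold higher and Hpgd, which inactivates prostaglandins, at least 793-fold. Dct, best known as a pigment-cell enzyme, was at least 587-fold higher. The largest bound, 1365-fold for Cyp3a44, falls in a near-identical family, as do those of Ugt2b1, Ugt2b35, Sult3a1 and Sult1d1.

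Secreted plasma proteins were one-sided. All 31 measured carrier and binding proteins were called higher in liver, with a median log2 ratio of 7.35, against -0.043 over all genes tested. All 21 coagulation and fibrinolysis genes (median 6.77) and all 18 complement genes (median 6.86) were also called higher. Ambp, which encodes alpha-1-microglobulin and bikunin, was the highest carrier protein, with 9.88, 11.24, 9.86, 10.33 and 9.67 in the 5 animals (mean 10.20 ± 0.63, adjusted p = 8.69e-07). The animals differed by less than 2 log2 units and none came near 0.

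Within coagulation the ratios spread widely. F13b, the carrier subunit of the clot-stabilising factor XIII, stood at 10.88 and Serpinc1, antithrombin, at 10.06, whereas F10 was at 1.65 and Pros1, protein S, at 2.45. F13b was not well above background in both channels on every array, and its mean was as low as 7.11 under other settings. Fibrinogen's 3 chains were all called higher, Fgg at 9.82, Fgb at 8.05 and Fga at 7.94. The call of F10 was lost from median signals, from the deposited values and with spike-ins at 0. In complement the inhibitor C4bp and the terminal component C8a stood at 9.72 and 8.96.

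**Figure D2:**
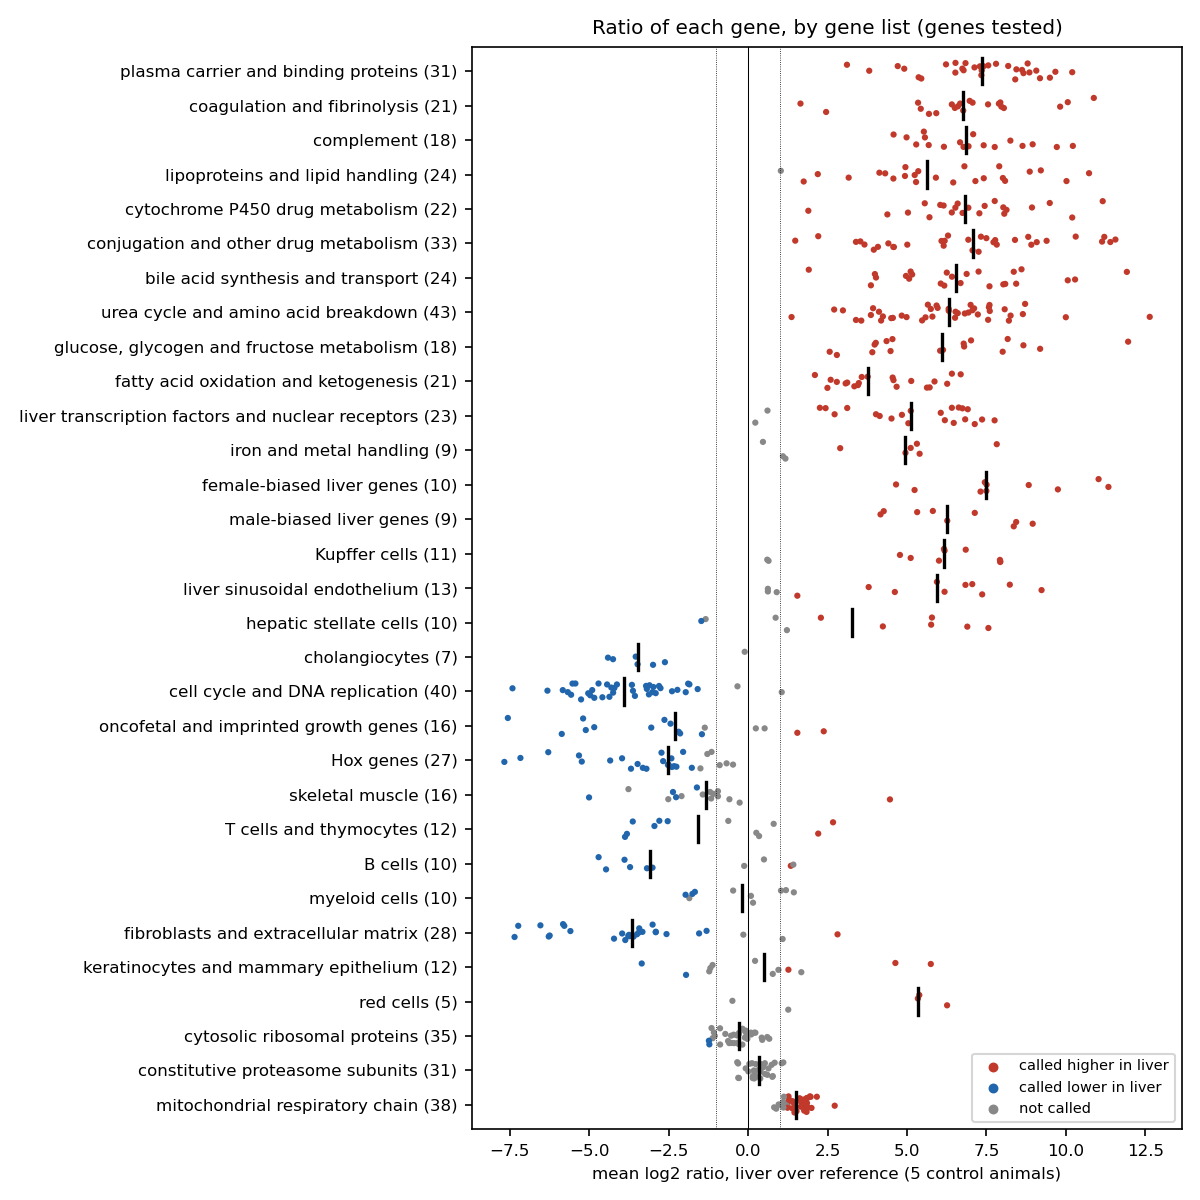
Mean log2 ratio of liver over reference over the 5 control animals (horizontal axis) for every tested gene of each list, with the list size in brackets; red points were called higher, blue points lower, grey points neither, black bars are list medians and dotted lines mark 2-fold. The secreted and metabolic lists lie to the right (median 7.35 for carrier proteins) and the cell cycle and fibroblast lists to the left (medians -3.90 and -3.67).

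Lipid carriers and bile acid genes were also mostly above the reference. Of 24 lipoprotein and lipid handling genes 23 were called higher (median 5.63), and the exception was Pltp, the phospholipid transfer protein, with a mean of 1.03. Apob, the structural protein of very low density lipoprotein, had log2 ratios of 9.27, 10.14, 9.04, 8.61 and 9.00 (adjusted p = 8.98e-07), all far above the reference. All 24 bile acid genes were called higher (median 6.55), with Cyp7a1, the rate-limiting enzyme of bile acid synthesis, at 8.60. Slco1b2, an uptake transporter of the sinusoidal membrane, averaged 10.06 ± 0.99, but Slc10a1, the main sodium-dependent bile acid importer, gave only 1.91 and lost its call from median signals and with spike-ins at 0.

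Enzymes that handle foreign compounds were all called higher: 22 of 22 cytochrome P450 genes (median 6.84) and 33 of 33 conjugation and related genes (median 7.06). Cyp4a14, a fatty acid hydroxylase, ranged from 8.79 to 10.64 over the animals, with replicate 2 the highest. Por, which passes electrons to all microsomal P450 enzymes and is not confined to liver, had the smallest ratio of its list at 1.89. Gstp1, a glutathione transferase, had the smallest of the conjugation genes at 1.48. Both calls were lost from the deposited values and with spike-ins at 0, and that of Gstp1 also from median signals.

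The pathways that dispose of nitrogen and amino acids followed. All 43 measured genes were called higher (median 6.31). Cps1, the entry enzyme of the urea cycle, had 8.35, 9.01, 7.29, 8.28 and 8.09 (mean 8.21 ± 0.62, adjusted p = 1.56e-06), with replicate 2 the highest and replicate 3 the lowest. Of the other urea cycle enzymes, Arg1 stood at 7.60, Otc at 7.58, Ass1 at 4.99 and Asl at 3.86, all called higher.

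All 18 genes of glucose, glycogen and fructose metabolism were called higher (median 6.09), led by Slc2a2, the glucose carrier of hepatocytes, at 11.96. Slc2a2 was not well above background in both channels on every array. Its mean was as low as 7.91 under other settings, and its call was kept. Fatty acid oxidation had smaller ratios: all 21 genes were called higher, but the median was 3.76 and the lowest, Hadha of the mitochondrial trifunctional protein, was 2.10 and was not called with spike-ins at 0. The mitochondrial respiratory chain followed with a median of 1.496, and 30 of 38 subunits called higher. Sdhb of complex II was the highest of these subunits, with 2.75, 2.66, 2.66, 2.68 and 2.86. Its SD of 0.08 was well below that of Ambp among the secreted proteins (0.63).

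The count for the respiratory chain depended on the scaling: it was 37 of 38 with ribosomal protein genes at 0, 25 with no further loess, 14 from median signals with normexp background correction, 17 from the deposited value table and 1 with spike-ins at 0. The proteasome and the cytosolic ribosome, which every cell needs, stayed near 0. None of 31 proteasome subunits was called in either direction (limma's treat; median 0.33), and of 35 ribosomal protein genes 2, Rps19 and Rps4x, were called lower (median -0.30). The call of Rps19 was lost when any of replicates 1 to 4 was left out (adjusted p = 0.0516 to 0.0687), and both were lost with the median ribosomal protein gene at 0. Median signals with normexp gave 19 lower calls among the ribosomal genes, 8 were called lower from the deposited value table, and 16 with spike-ins at 0.

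Of 23 transcription factors and nuclear receptors tied to liver, 21 were called higher, with a median of 5.12. Nr5a2, a nuclear receptor that controls bile acid and cholesterol genes, had 7.75, 7.23, 6.91, 7.75 and 7.17 (adjusted p = 6.45e-07). Nr1i2, the xenobiotic receptor PXR, averaged 7.13 and Ppara, the fatty acid sensor, 6.91. Cebpb, at 0.22, was not called. In iron and metal handling 6 of 9 genes were called higher, led by Tfr2, a sensor of transferrin iron, at 7.83, while the metallothioneins Mt1 and Mt2 and the ferritin heavy chain Fth1 were not called.

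The liver also has genes whose level differs between the sexes. All 10 measured female-biased genes were called higher than the reference, with a median of 7.50, and 5 of them were not well above background in the reference. Hao2, a peroxisomal hydroxyacid oxidase, was at least 211-fold higher. All 9 male-biased genes measured were called higher too (median 6.27) in these females, and the comparison is with the reference, not with males. Slco1a1 ranged from 7.50 to 10.38 and Cyp7b1, an oxysterol hydroxylase, from 7.71 to 9.20. Several genes on both lists (Cyp3a44, Sult3a1, Cyp2b9, Cyp4a12a, Mup20) have near-identical relatives, so their values may be shared.

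Most Kupffer cell genes were above the reference. Of 11 tested, 9 were called higher (median 6.16). The count was 9 also from median signals and from the deposited values, but the median was then 3.88 and 4.20. Clec4f, a lectin of Kupffer cells, had 7.96, 8.53, 7.46, 7.75 and 7.93 (mean 7.92 ± 0.39, adjusted p = 6.03e-07), so every animal was near 8. Cd5l and Vsig4 both averaged 7.93. The general macrophage genes Csf1r and Adgre1, at 0.60 and 0.64, were not called. Among other myeloid genes none of 10 was called higher and 3 were called lower, including Ncf1 of the phagocyte oxidase at -1.75. For all genes tested the shares were 17.9% higher and 18.4% lower.

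Sinusoidal endothelium gave a similar division. Of 13 genes 10 were called higher (median 5.94), and 9 from median signals (median 3.14) or the deposited values (3.55), with Bmp2, a signal that sets hepatic iron hormone levels, at least 199-fold higher and Gpr182, an orphan receptor, at 8.24 ± 0.65. Gpr182 was not well above background in both channels on every array, and its mean was as low as 5.36 under other settings. The endothelial genes shared by other vascular beds, Pecam1, Flt1 and Kdr, lay between 0.62 and 0.90 and were not called. Of 10 stellate cell genes 6 were called higher: Lrat, which stores vitamin A as esters, was at least 41.4-fold higher and Reln at least 13.3-fold. Pdgfrb, the receptor of activated stellate cells and of fibroblasts, was the 1 member called lower, at -1.47 ± 0.24, and was not called with ribosomal protein genes at 0.

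Bile duct markers ran the other way: 6 of 7 were called lower (median -3.48). Median signals gave 5 (median -1.66) and the deposited values 6 (median -1.71). Krt19, a duct keratin, had -3.81, -4.52, -4.25, -4.84 and -3.86 (adjusted p = 9.36e-06), and no animal approached the reference. Epcam was at -4.41 and above background in liver on 1 array. In whole liver a lower ratio can reflect fewer cells of a type or less RNA in each, and these cannot be told apart. Of 10 red cell entries 5 were tested and 3 were below background. Hemoglobin and heme genes made up the 3 called higher: Alas2 at 6.26, Hbb-bt at 5.39 and Hba-a1 at 5.34. The other 2 tested were not called, the lowest at -0.50. The part of blood in the tissue was not tested.

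Genes of cell division were the clearest group below the reference. Of 40 tested, 38 were called lower and none higher, with a median of -3.90. Mki67, the proliferation marker, averaged -5.57. Cenpe, a kinetochore motor, had -6.37, -6.06, -6.21, -6.16 and -6.79 (adjusted p = 6.03e-07), so the animals lay within 1 log2 unit. Uhrf1, which maintains DNA methylation at replication forks, had a mean of -6.71 ± 0.27. Bub1 of the spindle checkpoint was not well above background in any liver and was at least 47.1-fold lower, and Exo1, a repair nuclease, at least 57.0-fold. The exceptions were Tk1 at -0.34 and Chek1 at 1.06, which were not called.

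Fibroblast and matrix genes were lower in 25 of 28 cases (median -3.67). Vim, the filament of mesenchymal cells, gave -6.20, -6.39, -6.30, -6.22 and -6.28, the tightest set of values among the 20 lowest genes, with an SD of 0.08 (adjusted p = 4.45e-07). S100a6 averaged -7.24, Col1a1 -5.83 and S100a4 -5.59. Thbs1, a matrix protein of wounded tissue, was at least 77.3-fold lower and Twist2 at least 54.6-fold. Lum, a small proteoglycan, was called higher at 2.81 ± 0.33, the reverse of the rest of its list, and Fn1 and Postn were not called.

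The lowest ratio among genes seen in both channels was that of Dlk1, an imprinted growth regulator of fetal tissues, with -7.21, -7.82, -7.16, -8.30 and -7.33 (mean -7.56 ± 0.49, adjusted p = 1.09e-06). All 5 animals were more than 7 log2 units below the reference. Of 16 oncofetal and imprinted genes 11 were called lower (median -2.32), Hmga2 at -5.87 among them. Cdkn1c, an imprinted inhibitor of cell division, was called higher at 2.38 ± 0.12 and Mdk, a heparin-binding growth factor, at 1.55 ± 0.26. The serine and asparagine makers Psat1 (-5.72) and Asns (-6.58) and the fatty acid desaturase Scd2 (-6.40) were also among the 20 lowest.

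Hox genes, which mark position along the body axis, were lower in 21 of 27 cases and higher in none. In 16 of the 27 the liver channel was above background on no array, so their fitted ratios are not measurements of the fold. The list median was -2.53 as fitted and -1.77 with those genes at their bounds. Only 11 were called lower from median signals (median -0.955) and 12 from the deposited values (median -1.07), but 27 with spike-ins at 0. Hoxc6 was at least 96.5-fold lower and Hoxc9 at least 54.1-fold. Fos, an immediate early gene, was at least 81.5-fold lower.

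Lymphocyte genes were mixed. Of 12 T cell genes 6 were called lower and 2 higher (median -1.58), and of 10 B cell genes 6 were lower and 1 higher (median -3.10). Ms4a1, the CD20 antigen, averaged -4.71 and Lat, an adaptor of the T cell receptor, -3.88. Cd4 and Zap70 went against their list at 2.67 ± 0.48 and 2.21 ± 0.14, as did Cd22 among B cell genes at 1.34 ± 0.11. Smaller lists split likewise: Cdh1 and Dsp, genes of epithelial junctions, were 5.75 and 4.63 above the reference while the keratin Krt14 was 1.96 below it (-1.96). Among kidney genes 3 of 9 were higher, with Pax2 at 5.98, and 4 lower, with Cubn at least 2.41-fold lower. From median signals and from the deposited values these counts were 1 and 0. Of 12 neuronal and glial genes 3 were lower and 1 higher, Rbfox3 at 3.88. One of 3 lung genes, Sftpd, was higher at 4.01. Over all genes tested 17.9% were called higher and 18.4% lower, and counts in lists this small were not tested against those shares.

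Germ cell, steroidogenic and pancreatic genes were thinly measured. Of 20 pluripotency and germ cell entries 12 were below background, and of the 8 tested 1, Tnp1, was called higher at 1.63 ± 0.35. Of 4 steroidogenic genes 3 were higher, Hsd3b1 at least 8.78-fold with near-identical relatives in liver. Of 4 pancreatic genes 1, Ctrb1, was higher at 2.63 ± 0.53. The share called higher over all genes tested was 17.9%, so 1 call in a list of this size does not set it apart.

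Some calls depended on the signal used. Among the 222 genes named by rule, 19 lost their call from median signals with normexp background correction, and 18 lost it when the deposited values were used. Those of Mdk, Tnp1, Hsd3b1, Cd22, Ncf1, Krt14, Cubn, Cpt1c and Pck2 were lost under both, those of Reln and Rbfox3 under the first only, and those of Hmgcs1 and Acaca under the second only. With spike-ins at 0, 12 calls were lost, Mdk, Tnp1, Zap70, Cd22, Hmgcs1 and Acaca among them, and Acaca was also not called with no further loess. Medians of hepatocyte lists moved as well: that of glucose, glycogen and fructose metabolism was 6.09, but 4.54 from median signals and 4.74 from the deposited values, and that of bile acid genes 6.55, 5.21 and 5.64.

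Gene families with a listed liver form divided only in part between that form and the others. For 20 families a liver form was listed, and 18 of the 20 liver forms were called higher (median 6.78). Of 29 measured other forms 14 were called lower, 4 higher and 11 neither (median -1.65). The ratios compare each gene with its own level in the reference, so they do not rank the abundance of the members within liver.

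Glycolysis and glucose entry gave the sharpest pairs. Pklr, the liver and red cell pyruvate kinase, had 6.95, 6.20, 4.84, 6.05 and 6.18 (mean 6.04, adjusted p = 1.4e-05). Pkm, the form of most other tissues, had -3.36, -3.71, -3.54, -4.39 and -3.73 (mean -3.74, adjusted p = 1.23e-05). The sets lay on opposite sides of 0 in every animal. Pklr, like Slc2a2, was not well above background in both channels on every array, and its mean was as low as 3.31 under other settings. The hexokinases Hk1 and Hk2 of other tissues averaged -4.15 ± 0.19 and -2.71 ± 0.36. Slc2a2 stood at 11.96, and the widely used carrier Slc2a1 at -4.62 ± 0.18.

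Storage enzymes divided in part. Liver glycogen phosphorylase Pygl had 6.82, 6.92, 6.71, 6.81 and 6.67, and the brain form Pygb -1.66, -1.63, -1.57, -1.70 and -1.70. The animals were close together for both genes, with an SD of 0.10 and 0.05. The muscle form Pygm did not follow Pygb: it had 2.89, 1.56, 1.03, 1.15 and 0.96, was not called (mean 1.52, adjusted p = 0.17; 1.17 without replicate 1, adjusted p = 0.264), and was called higher with ribosomal protein genes at 0 or in the fits over all 23 arrays. Gys2 and Gys1, the liver and muscle glycogen synthases, averaged 8.17 and -2.25. Cytosolic Pck1 averaged 9.19, while mitochondrial Pck2 was above background in no liver channel and at least 3.74-fold lower. Alb averaged 6.78 and its fetal relative Afp -2.19 ± 0.36.

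Other families did not divide. Acacb and Acaca, the acetyl-CoA carboxylases, were both called higher at 3.60 and 1.40, as was Hmgcs1, a cholesterol enzyme, at 2.00. Fabp4 (3.75) and Fabp7 (4.01), fatty acid binding proteins of fat and brain, were called higher along with Fabp1. Mat1a averaged 8.07, and Mat2a, the form of dividing and extrahepatic cells, -0.63 without being called. Aldoa at -1.15 was not called either. Ldha at 0.56 and Eno1 at -0.18, listed as liver forms, were the 2 of the 20 liver forms that were not called. Aldoa was called lower from median signals (-2.27, adjusted p = 1.17e-05), from the deposited values (-1.62, adjusted p = 0.000186), with no further loess and with spike-ins at 0. Forms used by muscle moved with replicate 1: Eno3 was -1.09 in it and between -3.17 and -3.01 in the other controls, Ldhb -1.18 against -3.22 to -2.73, and Slc2a4 3.72 against -1.45 to 0.12. Fabp3, the heart and muscle fatty acid binding protein, averaged -3.52 with all animals (adjusted p = 0.0685) and -4.73 without replicate 1 (adjusted p = 3.28e-05).

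**Figure D3:**
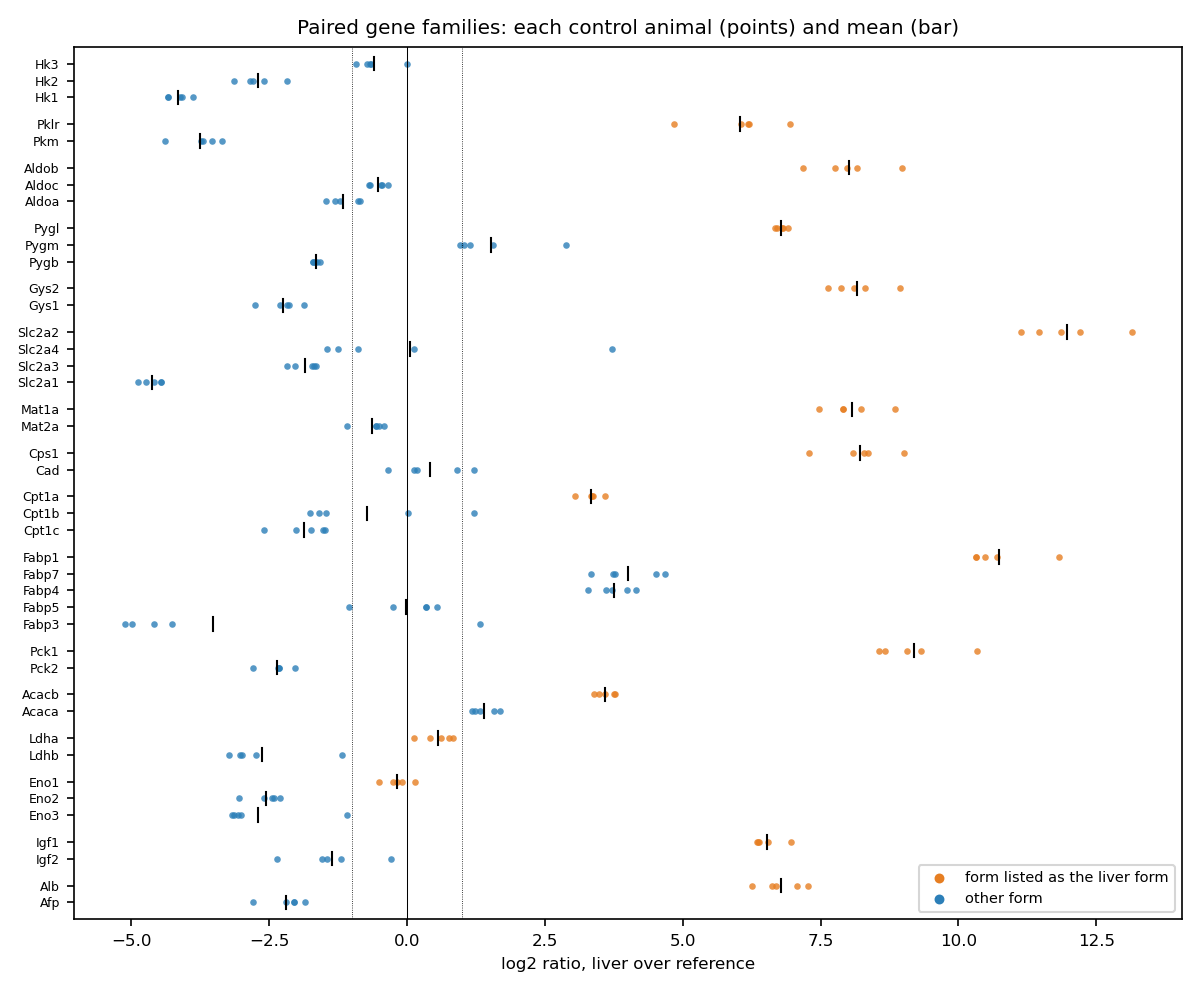
Log2 ratio of liver over reference (horizontal axis) for members of families with a liver form (orange) and other forms (blue); each point is 1 of the 5 control animals and each bar their mean. Pklr lies at 6.04 and Pkm at -3.74 on average; the outlying points of Slc2a4 and Fabp3 belong to replicate 1.

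Promoter sequence was a property that the ratio did not use. RefSeq promoters of build GRCm38.p6 (300 bases, 250 before to 50 after the most upstream start) were found for 2444 of 3072 genes called higher and 2483 of 3210 called lower. The core motif of HNF1, GTTAAT read on both strands, stood in 172 (7.04%) of the promoters of genes called higher and 92 (3.71%) of those called lower, against 565 of 11893 (4.75%) over all genes tested with a symbol. In all 27025 promoters of the table the share was 7.22%, close to that of the genes called higher. It was in 6 of 24 promoters of the carrier protein list (25.0%), 5 of 18 of coagulation (27.8%) and 5 of 12 of complement (41.7%), and in 2 of 33 of the cell cycle list (6.06%). Median GC content of these lists, in the same order, was 49.0%, 49.5%, 44.0% and 57.7%. It was 57.7% for genes called higher, 60.3% for those called lower and 59.7% for all tested with a symbol. The motif is rich in A and T, and the part of base composition in these shares was not tested. A match is a run of letters and no sign of binding, and no match says only that these letters were not in this window.

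The HNF4 word CAAAGTCCA was in 0.941% of promoters of genes called higher, 0.201% of those called lower and 0.446% of all tested. The TATAAA word was in 11.2%, 9.99% and 8.99%, and the C/EBP palindrome TTGCGCAA in 0.164%, 0.322% and 0.244%. The full HNF1 palindrome, which contains the core motif, was found in no promoter of a tested gene and in 0.0074% of the table. CpG dinucleotides were fewer where genes were called higher: the median promoter held 14 against 19 both for genes called lower and for all tested. The medians of the carrier protein, coagulation and complement lists were 3, 5 and 3, and that of the cell cycle list was 24.

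**Figure D4:**
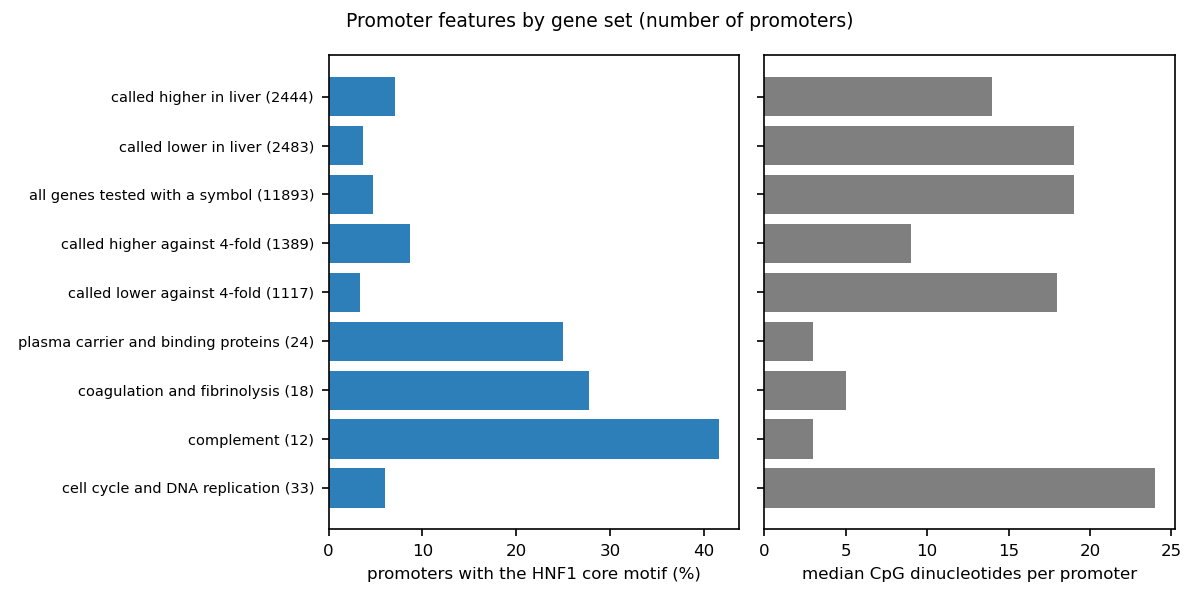
Share of promoters with the HNF1 core motif in percent (left) and median number of CpG dinucleotides per 300-base promoter (right) for each gene set, with the number of promoters in brackets. The complement list has the largest share at 41.7%, and the cell cycle list the most CpG at 24.

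The following 4 promoters show where the HNF1 core motif lies in genes with high ratios (200 bases before the start, 5′ to 3′ on the gene's strand, the match in capitals, read on the opposite strand as ATTAAC).
Alb, chr5:90460670-90460869, plus strand: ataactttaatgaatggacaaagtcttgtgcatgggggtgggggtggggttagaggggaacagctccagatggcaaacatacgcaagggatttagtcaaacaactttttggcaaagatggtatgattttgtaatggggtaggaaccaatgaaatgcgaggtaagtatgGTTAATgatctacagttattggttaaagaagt
Gc, chr5:89457899-89458098, minus strand: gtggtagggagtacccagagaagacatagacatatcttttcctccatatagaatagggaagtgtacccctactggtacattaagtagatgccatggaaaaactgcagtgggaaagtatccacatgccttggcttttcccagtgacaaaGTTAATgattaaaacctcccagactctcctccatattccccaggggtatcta
F13b, chr1:139501507-139501706, plus strand: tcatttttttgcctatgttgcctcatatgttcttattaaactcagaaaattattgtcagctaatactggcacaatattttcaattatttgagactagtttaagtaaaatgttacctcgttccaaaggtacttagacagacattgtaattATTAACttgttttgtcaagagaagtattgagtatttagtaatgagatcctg
Slco1b2, chr6:141629318-141629517, plus strand: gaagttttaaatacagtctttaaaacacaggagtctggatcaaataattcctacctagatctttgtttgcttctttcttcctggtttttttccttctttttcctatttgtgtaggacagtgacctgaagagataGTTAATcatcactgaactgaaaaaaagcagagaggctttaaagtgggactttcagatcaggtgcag
The match began 32 bases before the start in Alb, 52 in Gc (vitamin D binding protein, ratio 8.67), 51 in F13b and 66 in Slco1b2. Afp, whose ratio was below 0, held the same word 105 bases before its start, so the word was not confined to genes above the reference.

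The pyruvate kinase pair, chosen after the counts were seen, is shown for the CpG difference, with each CG in capitals over the same 200 bases.
Pklr, chr3:89135942-89136141, plus strand: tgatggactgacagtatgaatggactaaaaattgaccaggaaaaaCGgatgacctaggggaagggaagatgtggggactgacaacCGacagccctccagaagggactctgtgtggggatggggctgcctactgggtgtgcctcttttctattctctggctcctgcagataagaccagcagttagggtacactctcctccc
Pkm, chr9:59656376-59656575, plus strand: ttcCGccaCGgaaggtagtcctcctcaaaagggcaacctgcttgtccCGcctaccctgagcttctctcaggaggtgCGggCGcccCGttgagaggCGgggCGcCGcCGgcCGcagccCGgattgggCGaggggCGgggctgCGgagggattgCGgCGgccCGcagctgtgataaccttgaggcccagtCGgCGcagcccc
Within these bases Pklr, at 6.04, held 2 CG and Pkm, at -3.74, held 20. Each window lies at the most upstream start of its gene. Which start liver uses was not examined, so the Pklr window may not be the promoter behind its liver ratio. Some other families did not share this difference, and no count over all families was made. Hk1, called lower at -4.15, held 1 CG in its window, Pygl held 19 against 16 for Pygb, Cpt1a 13 against 4 for Cpt1c, and Acacb 8 against none for Acaca.

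The 5 animals did not vary evenly. Of 285 distinct genes on the hepatocyte lists, 221 had their highest ratio in replicate 2 and 155 their lowest in replicate 5. The median member was 0.66 above the median of the other animals in replicate 2 and 0.28 below it (-0.28) in replicate 5. The carrier protein median was 7.19, 8.40, 7.19, 7.53 and 6.85 in replicates 1 to 5. The ribosomal, proteasome and respiratory chain medians differed by less than 0.2 log2 units between animals. Each of replicates 2, 3 and 4 was the only control on its slide, replicates 1 and 5 shared a slide (correlation 0.959), and the array of replicate 2 had the highest spike-in intercept (log2 0.97, against 0.58 to 0.79 on the others). The part of slide and spike-in level in this difference was not tested.

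**Figure D5:**
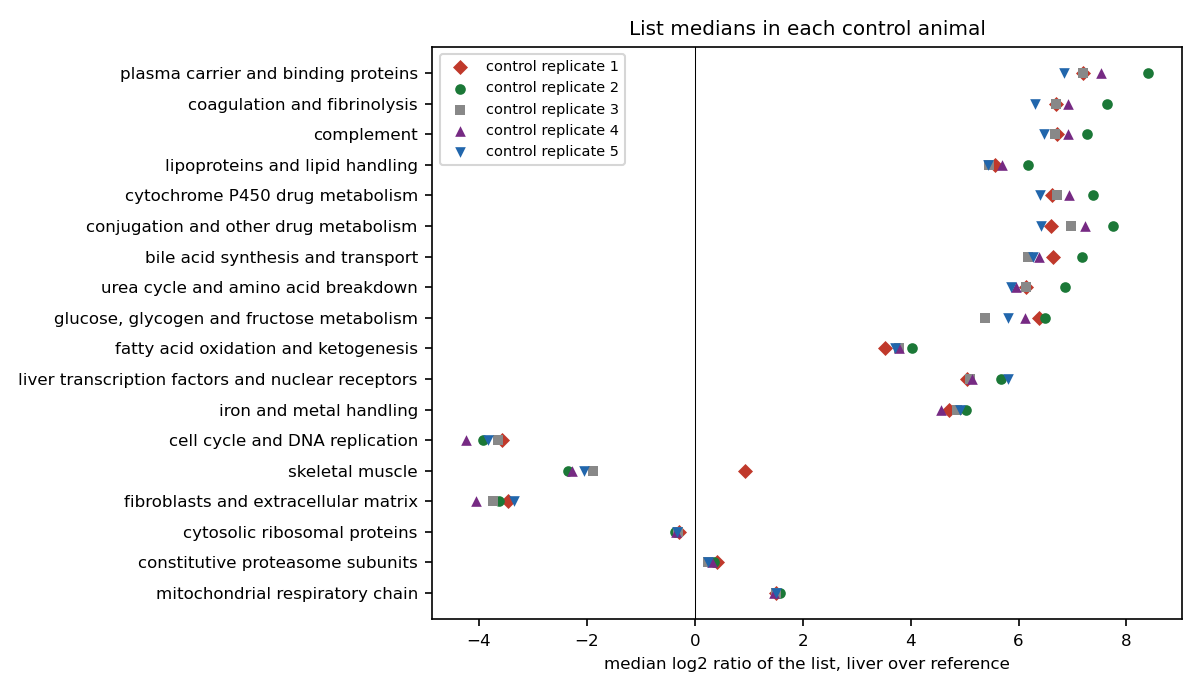
Median log2 ratio of liver over reference (horizontal axis) of each gene list in each of the 5 control animals (symbols). Replicate 2 has the highest median in most secreted and metabolic lists (8.40 for carrier proteins), replicate 1 stands alone in the muscle list at 0.93, and the lists of shared machinery coincide.

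Outside these lists large departures of single animals were few. Among the 16250 genes measured in both channels on all arrays, 28 were more than 2 log2 units above the median of the other controls in replicate 1, and 2, 4, 2 and 3 in replicates 2 to 5. The largest in replicate 1 after Tnni2 were Fabp3, Cox6a2 (0.49 against -5.40 to -4.68), Atp2a1 (3.96 against -0.89 to -0.18) and Cacna1s (0.61 against -3.59 to -3.12), all used by muscle. In replicate 3 Herc6, an interferon-induced ligase, was 3.39 against -0.56 to -0.06 in the others, and above the highest furan animal at 0.19. In replicate 5 Cyp26b1, which degrades retinoic acid, was -1.15 against 2.06 to 2.93; the mean was 1.74 with it (adjusted p = 0.323) and 2.46 without it (adjusted p = 0.000843).

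Few of the named genes differed among dose groups. The 442 genes (1.81%) that differed among the 5 dose groups by limma's moderated F test included 1 of the 222 genes named by rule, and that count was 2 with slide as a fixed block. It was Afp, with a mean of -2.19 in controls and 0.40 at 8 mg/kg (adjusted p = 0.000154, F test). Among list members, 4 of 285 on the hepatocyte lists passed (Gstm1, Gstp1, Ephx1 and Prodh) and 3 of 207 on the lists of other tissues and cell states (Mcm7, Tk1 and Afp). Gstp1 averaged 1.48 in controls and 2.01 at 8 mg/kg (adjusted p = 0.0318, F test), and Tk1 -0.34 and -0.91 (adjusted p = 0.00431, F test). A p that misses the threshold does not show that the other genes were equal across doses.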

How the data were processed

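Livers of 23 mice were profiled on 2-colour Agilent arrays. Per the file headers, the authors used Feature Extraction 10.7.3.1 (62976 spots an array). Its deposited processed signal, per the file headers, is an intensity on a linear scale after background subtraction and dye normalisation by the software. The deposited median signals and local backgrounds are raw intensities, and the deposited value table holds a Cy5 to Cy3 ratio of unstated processing (median correlation with the values used here 0.929). Both served only as alternatives.

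Log2 of processed Cy5 over Cy3 was loess-normalised within each array (span 0.3, 4 iterations, control and marked spots at weight 0). A probe was kept if a channel was well above background on at least 4 of the 5 control arrays (33297 of 55681). Systematic names were matched to RefSeq symbols (26413 probes, 20018 symbols), and 9492 genes kept another name. A gene was its brightest probe by both channels, with at least 3 values. Of 3898 genes with several kept probes, 21 had probes called in opposite directions. An intercept was fitted to the 5 ratios with limma 3.58.1 in R 4.3.3 (treat, 2-fold; 1.89 prior and 4 residual degrees of freedom), and the code was tested on simulated data. No spot was saturated. A bound sets the bright channel's mean against the higher of the dim value and the array's lowest signal above background, after loess and Aquantile. It is open to dye bias. Alternatives are given in the closing section. Precision is limited by the number of arrays.

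The members, the 39 gene lists and the families were chosen with earlier results of these data known. Named genes were the 20 highest and 20 lowest called genes measured in both channels, the 10 largest bounds each way, up to 3 leading and 5 opposed members of each list, all family members and the 10 largest SDs. Other genes printed were chosen from the lists after their values were seen. Some of the genes that this rule names are not reported here; they are counted in the totals of the lists and families.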

Additional observations from a re-analysis of the deposited data

Results flagged for a closer look

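Among 217 named genes reported here, 28 had 1 control animal far from the other 4 (its gap to the nearest animal was a large share of the whole range). Chance alone sets about 1 in 20 such groups apart in this way, a rate that cannot be set against this count, since 10 of the genes were named for their large SD and 7 of these are among the 28. Values are log2 ratios of liver over reference, and the causes were not tested.

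In replicate 1 these were Acta1 (4.026), Myl1 (4.104), Tnni2 (4.552), Fabp3 (1.316), Cox6a2 (0.4935), Atp2a1 (3.958), Cacna1s (0.6074), Ldhb (-1.177) and Eno3 (-1.087), genes used by muscle, all high. Also high there were Cpe (-5.351), Col1a1 (-5.333), Myo5a (-5.547) and Tnp1 (2.254), and Mat2a was low (-1.083). In replicate 2 the high values were Akr1c6 (13.52), Slc27a2 (13.03), Rgn (12.62), Fabp1 (11.83), Kng2 (10.96), C8a (9.792) and Slco1a1 (10.38), all hepatocyte genes. In replicate 3 Herc6 was high (3.386).

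In replicate 4 the low values were Cdkn2a (-6.472), Prrx2 (-6.467), Pou2af1 (-5.187), Ugt2b35 (9.633) and Baat (9.569). Ugt2b35 and Baat were not well above background in the reference on any array, nor Myo5a in liver, so their ratios are not measurements of the fold. In liver Acta1 was well above background on only 2 control arrays and Myl1 on 1. In replicate 5 Cyp26b1 was low (-1.15). The array of replicate 4 had the lowest liver signal counted as above background (51.5 intensity units) and the array of replicate 1 the highest (96.4). In the reference channel the array of replicate 4 had the highest such signal (22.8). The part of these levels in the values listed was not tested.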

How the results depend on the processing

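Counts of genes called higher and lower were 4373 and 4516. Median signals with normexp gave 2827 higher, and 2849 were higher by the deposited values. Requiring both channels above background left 2434 lower, a setting that tests 16281 genes. A test against 4-fold gave 2327 higher and 1916 lower. Spike-ins at 0, chosen after seeing the data, gave 2466 higher and 9891 lower and moved the median gene from -0.043 to -1.02; no further loess moved it to -0.27, ribosomal centring to 0.29 and the value table to -0.13. Leaving out each animal in turn gave 4186 to 4268 higher and 4161 to 4431 lower. Slide as a random block over all 23 arrays, also added later, gave 4417 and 4707.

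No called named gene and no called list median reversed under the settings run. Over all genes, 5 had opposite calls when the brightest Cy5 probe stood for the gene and 4 when the median probe did. For named genes 3963 outcomes kept their call status, 98 lost a call, 32 of them against 4-fold, and 83 gained one. List medians moved by more than the spread between animals in 147 of 739 cases. With slide as a fixed block 2 named genes passed the dose test, and 855 of all genes in place of 442. Among promoters of genes called against 4-fold, the HNF1 core motif was in 8.71% of those higher, and TATAAA in 13.6% of those higher and 11.5% of those lower. No paired analysis was possible because only 1 group of animals was tested, so replicate numbers pair no samples across groups; each ratio already pairs liver with reference within an array. Liver signal near background limits the lower calls.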

Other observations

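Several genes of the circadian clock or with a known daily rhythm differed widely among the control animals. They were picked after their values were seen, from those that varied most. Arntl, a core activator of the clock, had log2 ratios of 0.42, -1.46, -2.78, -2.56 and -4.24 in replicates 1 to 5. Replicates 1 and 5 lay at the ends, and replicates 1, 3 and 5 lay outside the range of the 18 furan animals (-2.65 to 0.26). Usp2, a deubiquitinase with a daily rhythm, had 0.15, 2.16, 2.65, 2.39 and 4.24. Alas1, the first enzyme of heme synthesis, had 1.41, 3.77, 4.65, 4.22 and 5.58. Noct, a rhythmic phosphatase, had -1.71, -0.46, 0.99, 0.70 and 1.80, and Per2, a clock repressor, 0.33, 0.86, 0.55, 1.35 and 2.32. In all 5 genes replicates 1 and 5 held the extremes, on opposite sides for Arntl and the other 4. Both animals were hybridised on the same slide, and the labels used here do not give the time of day of collection.

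Several genes of phagocytes were highest in replicate 4. Lyz2, lysozyme of macrophages and neutrophils, was 3.16 in it and 0.64 to 1.38 in the other controls. Lyz1 was 2.96 against 0.80 to 1.15, Plek -2.59 against -4.30 to -3.99 and Slamf9 -1.70 against -3.50 to -3.05. Furan animals reached 2.98 for Lyz2. These genes, too, were picked after their values were seen, and cell number was not tested.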
